A study of Danio rerio with 6 samples.

Results

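Acinar regulators and zymogen granule genes were examined in whole zebrafish larvae that were pdcd7/cx20 mutants or their wild-type siblings. The set was chosen by name and holds 6 transcription factor genes, ptf1a, rbpjl, rbpjb, bhlha15, nr5a2 and pdx1, and 3 genes of the granule membrane, gp2, cuzd1.1 and cuzd1.2. Rows of the count tables were taken where the gene ID carries one of these symbols. This gave 8 of the 9 genes, out of 32520 gene IDs in all. No ID matched the symbol gp2, the gene of a glycoprotein anchored in the zymogen granule membrane, so gp2 has no value here.

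Acinar cells of the exocrine pancreas make digestive enzymes and store them in zymogen granules until a meal calls for their release. Their enzyme genes are driven by the PTF1 complex, in which the basic helix-loop-helix factor PTF1A joins an E protein and either RBPJ, the DNA-binding factor of Notch signalling, or its relative RBPJL. In the mouse, RBPJL takes the place of RBPJ in this complex as acinar cells mature. BHLHA15, also called MIST1, organises the secretory apparatus of mouse acinar cells, and the nuclear receptor NR5A2 acts with PTF1 on enzyme genes. PDX1 marks the early pancreas and later the insulin cells. Several of these genes are also used elsewhere: ptf1a in precursors of inhibitory neurons of the retina and hindbrain, nr5a2 in liver and gut, pdx1 in islets and gut, and RBPJ genes wherever Notch acts.

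The series holds 3 libraries of mutants, genotype pdcd7/cx20 with the allele pd1215, and 3 libraries of wild-type siblings, all at 5 days after fertilisation (5 dpf) and all labelled batch 1. The titles carry cx20 in both groups, the genotype label in mutants only. The labels do not say what cx20 stands for, so a difference cannot be assigned to pdcd7 alone. RNA of 40 pooled whole larvae was used, and the labels do not say whether that number is per library. Nothing states that the replicates came from separate clutches, so p-values measure the spread between these libraries, which may be technical.

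The deposited values are raw counts of read pairs per gene, and the library totals ran from 75122088 to 87110177. Levels are given in CPM, counts-per-million of the TMM-scaled library size (TMM is edgeR's scaling for library composition), and an error after ± is the SD of 3 libraries, or the SE where so marked. A count of 0 would allow 3 counts, or 0.0344 to 0.0399 CPM, and covers counting error only. All 11 matched IDs of a marker list for muscle, neurons, epidermis, liver and islet held at least 1 CPM in every library, as whole larvae should. The targeted gene pdcd7 had 21.8, 19.6 and 20.5 CPM in mutants, against 14.8, 14.99 and 15.3 CPM in wild types (log2 0.46 ± 0.05 SE, adjusted p = 7.92e-08 in edgeR). It was higher in mutants, and counts over the whole gene do not show what the allele changes in it. Of 24248 genes tested, 68.9% passed an adjusted p of 0.05 in edgeR's quasi-likelihood test, 34.7% higher and 34.2% lower in mutants.

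All 8 genes passed the filter on low counts. At the threshold, 5 were lower in mutants, 0 were higher and 3 were not called. Calls in either direction were therefore about as common as among all genes, and the members differed mainly in size of change. The granule genes cuzd1.1 and cuzd1.2 and the regulator rbpjl were about 3-fold lower, rbpjb and nr5a2 were slightly lower, and ptf1a, bhlha15 and pdx1 did not pass. A second test, against a change of 1.5-fold, called 3 members lower and 0 higher, where it called 13% of all genes, 7.27% lower and 5.77% higher. Groups did not overlap for 5 members that were lower in mutants and 1 that was higher, and for 35.8% and 36.4% of all genes in those directions. The median log2 change of the 8 members was -0.21, beside 0.01 over all genes tested.

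**Figure D1:**
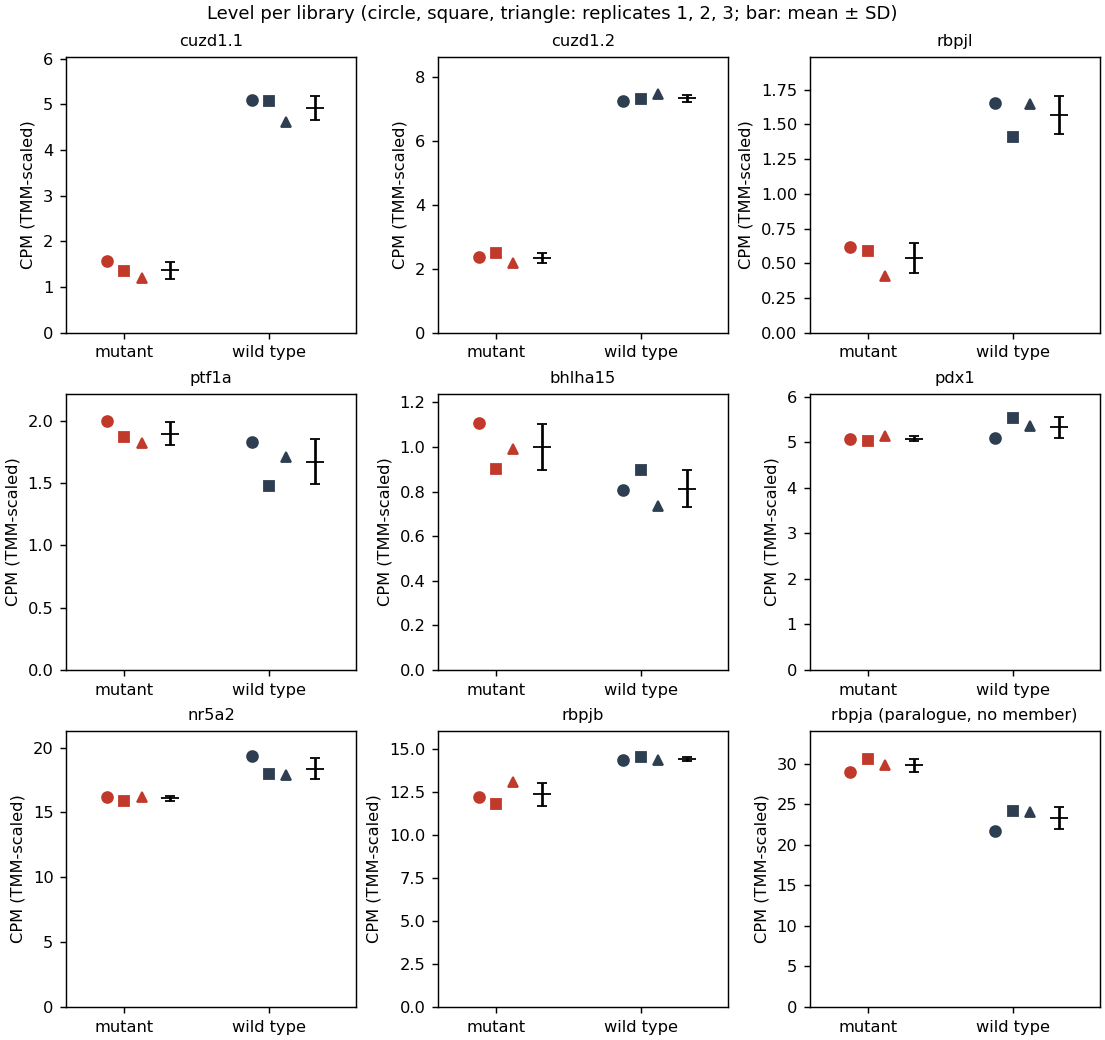
Level of each gene in each library, in CPM, for mutants (left in each panel) and wild types, with replicates 1 to 3 as circle, square and triangle and the mean ± SD beside them; rbpja, the paralogue of rbpjb, is shown for comparison. The 3 mutant libraries lie far below the wild types for cuzd1.1, cuzd1.2 and rbpjl, while those of ptf1a and pdx1 overlap with them.

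CUZD1 is a membrane protein with CUB and zona pellucida-like domains that sits in zymogen granules of rodent pancreas. The gene cuzd1.1 (ENSDARG00000089050, build GRCz11, chromosome 17, 21870044 to 21884323, minus strand) had 1.57, 1.34 and 1.201 CPM in mutants, against 5.09, 5.06 and 4.62 CPM in wild types. The groups lay far apart, with no mutant library near the lowest wild type. The level was 3.59-fold lower in mutants with a log2 change of -1.85 ± 0.10 SE (edgeR, adjusted p = 2.45e-11). In whole larvae, fewer acinar cells and less RNA per cell cannot be told apart, here and for all genes below.

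Its neighbour cuzd1.2 (ENSDARG00000025311, chromosome 17, 21833719 to 21859164, minus strand) had 2.37, 2.50 and 2.18 CPM in mutants, against 7.25, 7.33 and 7.46 CPM in wild types. Replicates were close in both groups, and the groups did not overlap. The level was 3.13-fold lower in mutants with a log2 change of -1.65 ± 0.08 SE (edgeR, adjusted p = 2.54e-12). Both genes stand among the strongest falls, since 1.72% and 2.17% of tested genes had a lower log2 change than cuzd1.1 and cuzd1.2.

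The pair lies head to tail on the same strand with 10879 bases between the gene models. The counting command names no option for reads with several alignments, so where the copies are near-identical the level of each and their ratio are uncertain. The symbols are those of the ID table, and RefSeq's assembly GRCz12tu places a gene named cuzd1.1 on chromosome 15, so the name of ENSDARG00000089050 is less certain than its values. The ratio of cuzd1.1 to cuzd1.2, in counts per kilobase of exon, was 0.897, 0.726 and 0.746 in mutants and 0.948, 0.933 and 0.836 in wild types. These ranges overlap (exact permutation test, two-sided, p = 0.2; adjusted p = 0.2 over 5 ratios). With 3 against 3 libraries the smallest p is 0.1, so this test cannot show whether the 2 falls differ. Of the 3 gene models on either side of the pair, none was lower at the threshold. HMX3 and plekha1a, the nearest tested genes on either side, changed by log2 0.04 ± 0.05 and -0.01 ± 0.04 SE (adjusted p = 0.556 and 0.743 in edgeR). HMX2 and HTRA1, the next ones, were higher by log2 0.19 ± 0.08 and 0.22 ± 0.05 SE (adjusted p = 0.0401 and 5.02e-04 in edgeR). The remaining pair, ifi44e and a 5S_rRNA gene, had too few counts to be tested.

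RBPJL is the acinar relative of RBPJ and gives the mature PTF1 complex its activity on enzyme genes. The gene rbpjl (ENSDARG00000074148, chromosome 6, 52757433 to 52796212, minus strand) had 0.618, 0.586 and 0.412 CPM in mutants, against 1.65, 1.41 and 1.64 CPM in wild types. Mutant replicate 3 was the lowest library, and every mutant library was below every wild type. The level was 2.92-fold lower in mutants with a log2 change of -1.55 ± 0.17 SE (edgeR, adjusted p = 2.30e-07). These levels rest on few reads, 48, 48 and 37 counts in mutants against 121, 110 and 130 in wild types. At 37 counts, counting error alone is 16.4% of the value.

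The 95% intervals of the 3 large falls overlapped: log2 -2.06 to -1.63 for cuzd1.1, -1.81 to -1.48 for cuzd1.2 and -1.91 to -1.198 for rbpjl. None of them overlapped with the interval of any other member.

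**Figure D2:**
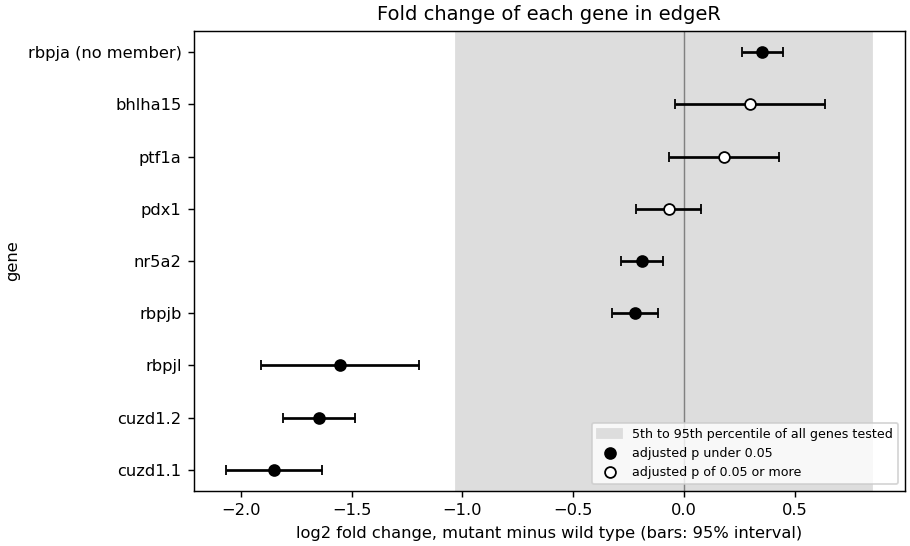
Log2 fold change of each gene, mutant minus wild type, from edgeR with its 95% interval; filled points passed an adjusted p of 0.05. The genes cuzd1.1, cuzd1.2 and rbpjl lie below the grey band, which spans the 5th to 95th percentile of all genes tested (-1.03 to 0.85), and the other genes lie within it.

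RBPJ itself has a pair of genes in zebrafish, and both IDs carry the same symbol in the name table. The ID on chromosome 7 was taken as rbpjb, because it shared 11 named neighbours within 15 genes on either side with rbpjb in RefSeq's assembly GRCz12tu and the other ID shared 0. That gene, rbpjb (ENSDARG00000052091, chromosome 7, 62080456 to 62206933, plus strand), had 12.2, 11.8 and 13.1 CPM in mutants, against 14.4, 14.5 and 14.3 CPM in wild types. Wild-type libraries were nearly equal and all lay above the mutants, so the fall was small but beyond the spread. The level in mutants was 85.7% of that in wild types (log2 -0.22 ± 0.05 SE, adjusted p = 7.56e-04 in edgeR). The gene shares its chromosome with pdcd7, 48.34 Mb away.

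Its paralogue rbpja (ENSDARG00000003398, chromosome 1, 14454663 to 14464020, plus strand), which is not in the set, went the other way. It had 29.0, 30.6 and 29.8 CPM in mutants, against 21.7, 24.2 and 24.1 CPM in wild types (log2 0.35 ± 0.04 SE, adjusted p = 1.22e-06 in edgeR). The groups did not overlap. Per kilobase of exon, rbpjb made up 40.0% ± 1.58 of the summed rbpja and rbpjb level in mutants and 49.9% ± 1.48 in wild types. The sum of both was 9.66 ± 0.226 CPM per kilobase in mutants and 9.04 ± 0.289 in wild types. The lowest mutant library, at 9.45, was above the highest wild type, at 9.25, so the summed RBPJ level was not lower in mutants.

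The balance of RBPJL to RBPJ transcripts was taken within each library, where scaling between libraries plays no part. The ratio of rbpjl to rbpjb, in counts per kilobase, was 0.0970, 0.0949 and 0.0603 in mutants and 0.219, 0.184 and 0.218 in wild types. Every mutant library was at or below 0.0970 and every wild type at or above 0.184, a 2.51-fold difference in the mean (log2 -1.33). The exact permutation test gave p = 0.1, two-sided, the smallest value that 3 against 3 libraries allow, so this design cannot pass 0.05 (adjusted p = 0.125 over 5 ratios). As a share of the 3 RBPJ-family genes per kilobase, rbpjl held 3.20% ± 0.703 in mutants and 9.33% ± 0.945 in wild types. RBPJ genes are active in many tissues of a larva, so this share does not describe acinar cells alone.

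PTF1A is the helix-loop-helix subunit that gives the complex its name. The gene ptf1a (ENSDARG00000014479, chromosome 2, 29710857 to 29711761, plus strand) had 2.00, 1.87 and 1.82 CPM in mutants, against 1.83, 1.47 and 1.71 CPM in wild types. The lowest mutant library lay within the wild-type range. The change of log2 0.18 ± 0.12 SE did not pass (adjusted p = 0.179 in edgeR), and its 95% interval ran from -0.07 to 0.43. That interval does not reach the falls of rbpjl, cuzd1.1 or cuzd1.2. The gene model, at 798 bases, is the shortest of the set, and counting error at the lowest count was 9.33%.

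The ratio of rbpjl to ptf1a, in counts per kilobase, was 0.147, 0.149 and 0.108 in mutants and 0.427, 0.452 and 0.455 in wild types. Wild types were nearly equal, and the mutants lay 3.33-fold lower in the mean (log2 -1.74; exact permutation test, two-sided, p = 0.1, again the smallest possible, and adjusted p = 0.125 over 5 ratios).

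BHLHA15 acts in mouse acinar cells on genes of granule transport and secretion. The gene bhlha15 (ENSDARG00000045166, chromosome 12, 17754859 to 17756905, plus strand) had 1.11, 0.903 and 0.990 CPM in mutants, against 0.807, 0.897 and 0.734 CPM in wild types. Each mutant library lay above each wild type, though the closest pair was 0.903 in mutants against 0.897 in wild types. The change of log2 0.30 ± 0.16 SE did not pass (adjusted p = 0.109 in edgeR; 95% interval -0.04 to 0.64). Groups that do not overlap were common, at 72.1% of all genes tested. With library size as the only scaling, bhlha15 was called higher (log2 0.37, adjusted p = 0.0489 in edgeR). The gene had 58 to 89 counts a library.

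PDX1 is needed for the pancreas to form and later controls the insulin gene. The gene pdx1 (ENSDARG00000002779, chromosome 24, 21684189 to 21686706, plus strand) had 5.07, 5.03 and 5.15 CPM in mutants, against 5.09, 5.54 and 5.36 CPM in wild types. The mutant libraries spanned a narrow range that included the lowest wild type. The change was log2 -0.07 ± 0.07 SE (adjusted p = 0.393 in edgeR), with a 95% interval of -0.21 to 0.08, and 0.004 with library size as the only scaling.

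NR5A2 is an orphan nuclear receptor of the pancreas, liver and gut. The gene nr5a2 (ENSDARG00000100940, chromosome 22, 22634007 to 22719440, minus strand) had 16.2, 15.9 and 16.2 CPM in mutants, against 19.3, 18.0 and 17.9 CPM in wild types. Mutant libraries were nearly equal and all were below the wild types. The level in mutants was 87.5% of that in wild types (log2 -0.19 ± 0.04 SE, adjusted p = 0.00105 in edgeR). In the test against a 1.5-fold change neither nr5a2 nor rbpjb was called.

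Levels per kilobase of exon can be compared between genes. In mutants the order was pdx1 at 4.55 ± 0.0551 CPM per kilobase, nr5a2 at 3.94 ± 0.0445, rbpjb at 3.86 ± 0.208, ptf1a at 2.38 ± 0.112, bhlha15 at 0.944 ± 0.0969, cuzd1.2 at 0.900 ± 0.0619, cuzd1.1 at 0.709 ± 0.0966 and rbpjl at 0.319 ± 0.0658. The libraries of nr5a2 and rbpjb overlapped, as did those of bhlha15 and cuzd1.2. In wild types it was pdx1 at 4.77 ± 0.204, rbpjb at 4.51 ± 0.0379, nr5a2 at 4.50 ± 0.203, cuzd1.2 at 2.81 ± 0.0420, cuzd1.1 at 2.55 ± 0.137, ptf1a at 2.09 ± 0.228, rbpjl at 0.929 ± 0.0818 and bhlha15 at 0.767 ± 0.0773. There the libraries of nr5a2 overlapped with those of pdx1 and of rbpjb, and those of rbpjl with those of bhlha15. Both cuzd1 genes stood above ptf1a in wild types and below it in mutants.

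The digestive enzymes are the products that PTF1 and NR5A2 drive and that granules carry. Of 29 enzyme genes measured, 25 were lower and 2 higher in mutants, with a median log2 change of -3.20. As shares this is 86.2% lower and 6.90% higher, against 34.2% and 34.7% of all genes tested. The astacin protease gene c6ast3 changed by log2 -3.87 ± 0.11 SE and the elastase gene cela1.5 by -3.59 ± 0.33 (adjusted p = 1.27e-09 and 3.43e-06 in edgeR). For cela1.5 this rests on few reads, 2, 23 and 17 counts in mutants against 155, 162 and 148 in wild types. Its counting error at the lowest count was 70.7%, so the size of its fall is uncertain. CPA6, a carboxypeptidase gene, was higher by 0.47 ± 0.07 (adjusted p = 2.17e-05 in edgeR). So was the amylase-like gene amy2al1, named here after its value was seen, by 0.61 ± 0.11 (adjusted p = 8.61e-05 in edgeR). Both were low, at 4.65 CPM for CPA6 and 1.95 CPM for amy2al1 in wild types. Whether these 2 are enzymes of acinar cells in the larva was not tested. Summed over the list, enzymes held 1943, 2291 and 1689 CPM in mutants, against 19206, 16773 and 18076 CPM in wild types. That is 10.96% of the wild-type sum, and mutant replicate 2 held the most of the mutants.

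All 8 members fell less than the enzymes or did not fall, so each was higher relative to them. As counts-per-million of the summed enzyme counts of the same library, rbpjl held 318, 256 and 244 in mutants and 86.1, 84.1 and 91.0 in wild types, which is 3.11-fold higher in mutants. For cuzd1.2 the values were 1220, 1092 and 1290 in mutants and 377, 437 and 413 in wild types, 2.93-fold higher. For cuzd1.1 they were 809, 586 and 711 in mutants and 265, 302 and 255 in wild types, 2.55-fold higher. Groups did not overlap for any of these genes, and no test was run on these ratios. The other members, whose levels were not lower or only slightly lower, were further above the enzymes. Per enzyme count in mutants, ptf1a was 10.5-fold and bhlha15 11.3-fold higher, pdx1 8.77-fold, nr5a2 8.04-fold and rbpjb 7.87-fold. The enzyme sum itself was 9.13-fold lower in mutants, so a gene of unchanged CPM would be about that much higher on this scale. For members that changed little, the ratio thus mostly restates the fall of the enzymes.

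**Figure D3:**
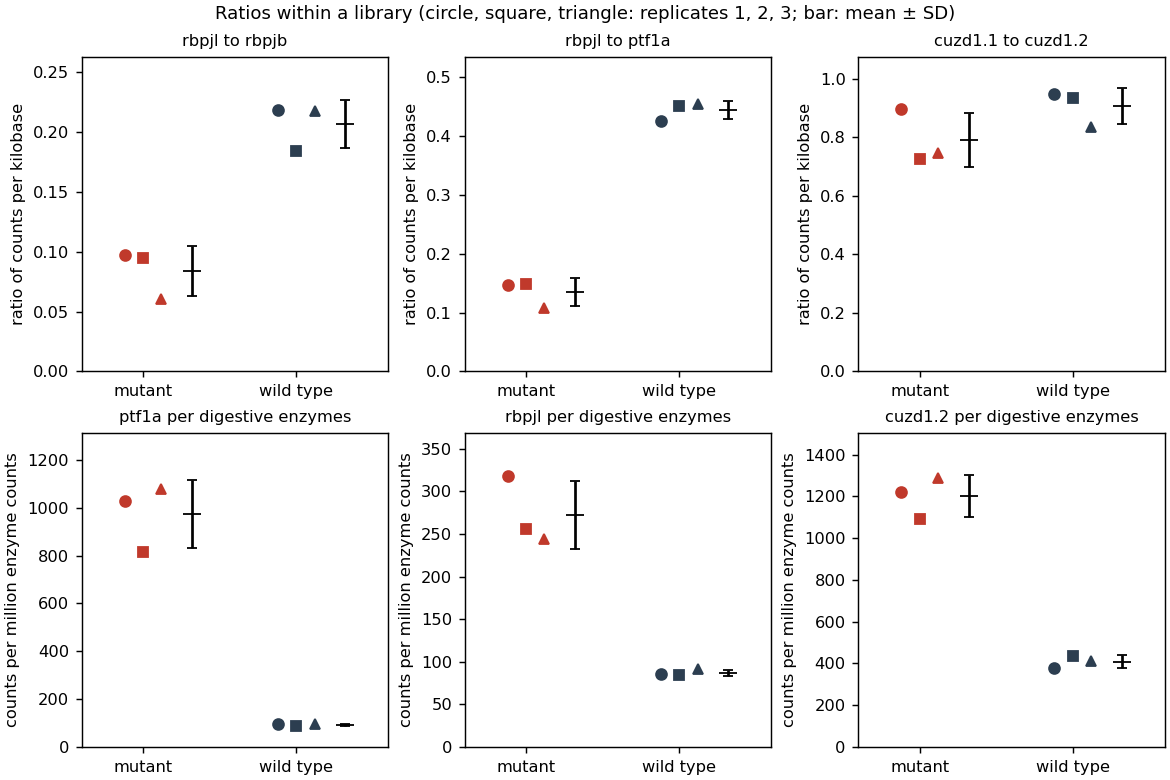
Ratios within each library for mutants (left in each panel) and wild types: rbpjl to rbpjb, rbpjl to ptf1a and cuzd1.1 to cuzd1.2 in counts per kilobase (top), and ptf1a, rbpjl and cuzd1.2 as counts-per-million of the summed digestive enzyme counts (bottom), with mean ± SD. The ratios of rbpjl to rbpjb and to ptf1a are lower in every mutant library than in any wild type, the cuzd1 ratio overlaps, and the ratios to the enzymes are higher in mutants.

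A wider list of granule genes was mixed as a whole. Of 32 genes of granule content, vesicle fusion and secretory signalling, 10 were higher, 11 lower (7 with library size as the only scaling) and 11 not called, with a median log2 change of -0.01. Shares of 31.25% higher and 34.4% lower were close to those of all genes tested, 34.7% and 34.2%. The summed level was 880 to 897 CPM in mutants and 1002 to 1012 in wild types. Genes of vesicle fusion and signalling are active in many tissues of a larva. The counts and sum of this list therefore do not describe acinar granules alone. In the test against a 1.5-fold change 2 of its genes were lower, pdia2 and sycn.1, and 0 higher. The pancreatic protein disulfide isomerase gene pdia2 had 26.8 ± 1.84 CPM in mutants and 116 ± 5.18 in wild types (log2 -2.11 ± 0.05 SE, adjusted p = 1.10e-13 in edgeR). The syncollin gene sycn.1, a granule content protein, had 2, 4 and 0 counts in mutants, against 77, 64 and 85 counts in wild types (adjusted p = 1.65e-09 in edgeR). The vesicle fusion gene vamp2, which neurons also use, changed by log2 -0.41 ± 0.03 SE and the syntaxin gene stx4 by 0.47 ± 0.04 (adjusted p = 1.42e-09 and 1.80e-08 in edgeR). The small GTPase genes RAB26 and rab3da, which BHLHA15 controls in the mouse, changed by log2 -0.63 ± 0.07 and 0.28 ± 0.08 SE (adjusted p = 1.62e-07 and 0.00552 in edgeR). The paralogue rab3db did not pass, at log2 0.01 ± 0.10 SE (adjusted p = 0.938 in edgeR). These last are named for that role after their values were seen.

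Partners of PTF1A and RBPJ were more often higher than lower. Of 29 E protein, ID protein and Notch pathway genes, 18 were higher and 3 lower in mutants, with a median log2 change of 0.17. Shares of 62.1% higher and 10.3% lower compare with 34.7% and 34.2% of all genes tested. The Notch ligand gene jag1b changed by log2 0.64 ± 0.03 SE, the receptor gene NOTCH1 (ENSDARG00000103554) by 0.59 ± 0.03 and ID1, an inhibitor of helix-loop-helix factors, by 0.45 ± 0.03 (adjusted p = 2.17e-11, 6.61e-11 and 8.53e-10 in edgeR). The Notch coactivator gene MAML3 was lower, at -0.34 ± 0.03 (adjusted p = 6.17e-08 in edgeR). The E protein genes tcf3a, tcf3b and TCF12, possible partners of PTF1A, were higher by log2 0.30 ± 0.05, 0.17 ± 0.03 and 0.12 ± 0.03 SE (adjusted p = 1.06e-04, 3.19e-05 and 0.00244 in edgeR) and are named for that role after their values were seen. The list's other E protein gene, TCF4, named in the same way, did not pass, at log2 -0.13 ± 0.07 SE (adjusted p = 0.103 in edgeR). These genes are active in many tissues of the larva.

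Of 22 further transcription factor genes of the pancreas and its progenitors, 16 were higher and 4 lower, with a median log2 change of 0.32. These shares of 72.7% higher and 18.2% lower stand beside 34.7% and 34.2% of all genes tested. Many of these factors are also active outside the pancreas, so counts of whole larvae do not show a change in pancreas cells. PROX1 had 112 ± 3.20 CPM in mutants and 54.8 ± 0.718 in wild types (log2 1.03 ± 0.03 SE), and the progenitor and duct factor gene SOX9 (ENSDARG00000043923) 43.5 ± 0.604 CPM in mutants and 24.8 ± 0.787 in wild types (log2 0.81 ± 0.04 SE). The proliferation gene MYC (ENSDARG00000045695) was higher by log2 0.55 ± 0.03 SE. The nuclear receptor gene HNF4A, of liver and gut, was lower, at 19.5 ± 0.681 CPM in mutants and 40.0 ± 0.534 in wild types (log2 -1.04 ± 0.04 SE). Adjusted p-values in edgeR were 1.08e-14 for PROX1, 1.19e-12 for SOX9, 1.46e-10 for MYC and 8.13e-14 for HNF4A.

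Islet genes, set beside pdx1, moved both ways. Of 25 tested, 10 were higher, 6 lower and 9 not called, with a median log2 change of 0.08. These shares of 40% higher and 24% lower stand beside 34.7% and 34.2% of all genes tested. The neural and endocrine precursor genes SOX4 (ENSDARG00000098834) and INSM1 (ENSDARG00000053301) were higher by log2 0.62 ± 0.04 and 0.44 ± 0.04 SE, and the prohormone convertase gene PCSK1 was lower at -0.89 ± 0.04 (adjusted p = 1.78e-09, 1.06e-08 and 8.64e-13 in edgeR). The insulin gene ins, a PDX1 target named after its value was seen, had 12.0 CPM in mutants and 11.4 in wild types (log2 0.08 ± 0.05 SE, adjusted p = 0.175 in edgeR). SLC2A2, of the same list and also named after its value was seen, was lower at log2 -0.94 ± 0.06 SE (adjusted p = 5.83e-08 in edgeR). Targets of PDX1 were not tested as a set. Summed over the list, islet genes held 967 to 1011 CPM in mutants and 890 to 924 in wild types. Of this, SOX4 (ENSDARG00000098834) alone held 139 CPM in mutants and 89.9 in wild types, far more than ins. Many genes of the list, SLC2A2 among them, are also active in other tissues, so neither they nor the sum describe islets alone.

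Genes of the neurons that arise from ptf1a-expressing precursors in retina and hindbrain were measured because ptf1a of a whole larva also comes from there. Of 26, 16 were lower (9 with library size as the only scaling) and 5 higher in mutants, with a median log2 change of -0.12, and summed they held 1429 to 1475 CPM in mutants and 1772 to 1836 in wild types. In the main fit 61.5% of the list were lower and 19.2% higher, against 34.2% and 34.7% of all genes tested. None of the list was at 0. GAD1 (ENSDARG00000027419) and GAD2, which make the transmitter GABA, changed by log2 -0.80 ± 0.03 and -0.73 ± 0.03 SE, and the glycine transporter gene SLC6A9 by -0.34 ± 0.04, while the precursor gene FOXN4, which acts before Ptf1a in the mouse retina, was higher by 0.67 ± 0.04. Adjusted p-values in edgeR were 2.08e-13, 2.90e-12, 1.90e-07 and 1.93e-10. General neuron markers were mostly lower too. SNAP25 changed by log2 -0.58 ± 0.03 SE at both IDs and STMN1 (ENSDARG00000033655) by -0.43 ± 0.03 (adjusted p = 2.45e-11, 5.10e-11 and 1.47e-09 in edgeR). Named after their values were seen, ELAVL3 changed by -0.12 ± 0.03 and STMN1 (ENSDARG00000004169) by 0.25 ± 0.04 (adjusted p = 0.00499 and 1.02e-05 in edgeR). Lower levels were thus not confined to this list. How much of the ptf1a level came from cells of the ptf1a lineage was not tested.

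Known targets of NR5A2 in liver, gut and steroid tissue were mostly lower, as nr5a2 was. Of 18 tested, 12 were lower and 2 higher, with a median log2 change of -0.45. That is 66.7% lower and 11.1% higher, beside 34.2% and 34.7% of all genes tested. CYP7A1, the rate-limiting enzyme of bile acid synthesis, changed by log2 -1.06 ± 0.04 SE, the lipoprotein gene apoa1b by -0.88 ± 0.03 and the sterol transporter gene ABCG5 by -1.06 ± 0.06, while the bile salt pump gene abcb11a was higher by 0.56 ± 0.05. Adjusted p-values in edgeR were 1.17e-13, 2.85e-13, 1.27e-11 and 2.14e-08. The other bile salt pump gene of the list, ABCB11 (ENSDARG00000070078), named after its value was seen, went the other way. It had 49.9 CPM in mutants and 67.2 in wild types, against 18.0 and 12.2 for abcb11a (log2 -0.43 ± 0.04 SE, adjusted p = 5.25e-09 in edgeR). Markers of the organs that also express nr5a2 were mostly lower too, and by more. Their sums were 54.3% (hepatocyte) and 41.7% (enterocyte) of wild type, against 87.5% for nr5a2. Of 16 hepatocyte genes 15 were lower and 0 higher, and their sum was 4920 to 4991 CPM in mutants and 8774 to 9291 in wild types. Of 16 enterocyte genes 14 were lower and 1 higher, with sums of 1215 to 1340 CPM in mutants and 2986 to 3091 in wild types. Lower calls thus made up 93.75% of the hepatocyte and 87.5% of the enterocyte genes, against 34.2% of all genes tested. The part of these organs in the level of nr5a2 was not tested.

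**Figure D4:**
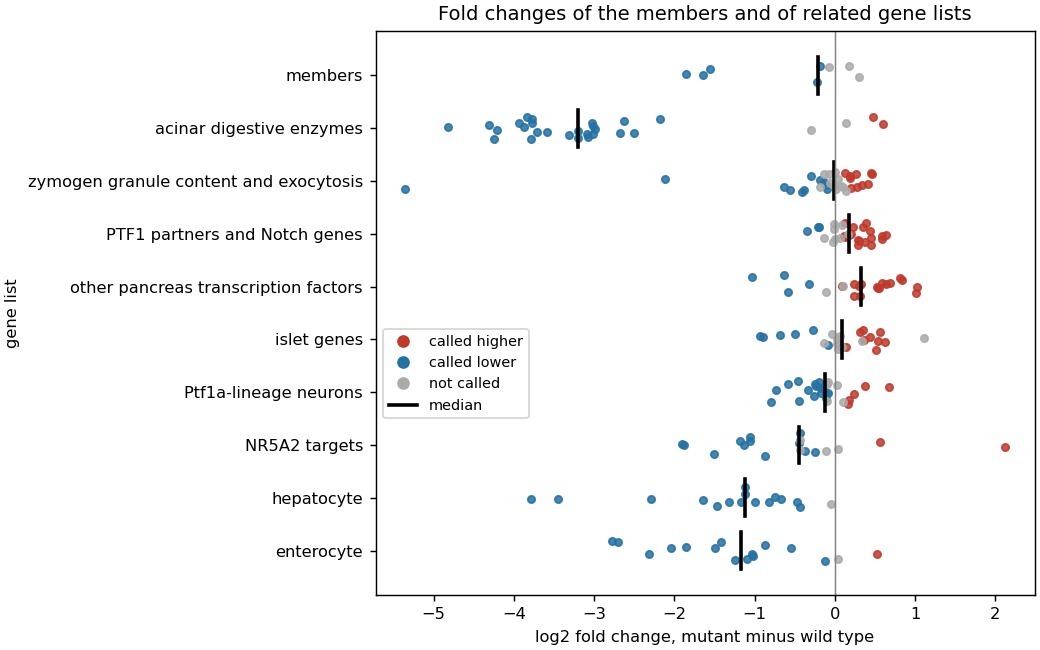
Log2 fold change, mutant minus wild type, of the 8 members and of every tested gene of 9 related lists; red points were called higher, blue lower and grey not called, and black bars mark medians. The digestive enzymes lie furthest to the left (median -3.20), and the 3 members with large falls lie between most of the enzymes and the other members.

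The genes whose profile over the 6 libraries was most like that of ptf1a, by Pearson's r of log2 CPM among 17393 genes, were fbxo44.9 (r = 0.995), pitpnc1b (0.991) and RHOG (0.990), and 23 genes reached 0.95. For rbpjl they were ccdc142 (0.999), aldh2.2 (0.999) and mul2 (0.998), and 2460 genes reached 0.95. The r takes no account of the size of a change: the log2 change was -0.14 ± 0.04 SE for ccdc142, -0.46 ± 0.04 for aldh2.2 and -0.21 ± 0.04 for mul2.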

How the data were processed

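Each library has a deposited table of raw gene counts, in which a read pair counts once. Per the file headers they were made with featureCounts 1.6.3 over exons of Ensembl GRCz11 models, release 115, with a reverse-stranded setting (2), so antisense reads were told apart; the command holds no option for reads with several alignments. Per the submitters' processing notes, Trimmomatic 0.38 and STAR 2.7.11 were also used. Per the labels' protocols, a stranded kit for mRNA was used.

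Members and lists were chosen with earlier results of these data known. Symbols came from a table of gene IDs. Of 239 list entries, 171 matched exactly, 35 after a paralogue letter was dropped, 4 through a RefSeq synonym, and 29 were not matched. The test was the robust quasi-likelihood test of edgeR 4.0.16, run in R 4.3.3 on all genes, with filterByExpr, TMM scaling, genotype as the only term and Benjamini-Hochberg adjustment at 0.05. It was tested on simulated data. Log2 changes are mutant minus wild type, and SEs are the change divided by the root of F. Ratios within a library had 0.5 counts added. Named list genes are the 3 called genes with the smallest p in the majority direction and 1 in the other; others are marked, and 1 gene that the rule names is not reported here. No sequence was printed, because none was used here. Figures were drawn with matplotlib 3.10.9.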

Additional observations from a re-analysis of the deposited data

How the results depend on the processing

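Alternatives covered scaling (size factors of DESeq2, upper quartile, library size only), the filter (1 count, or 1 CPM), the tool (DESeq2 1.42.0 or voom of limma 3.58.1), a replicate block, libraries left out and a test against a 1.5-fold change. Under the scalings, filters, DESeq2, limma-voom, the block and each left-out library, the count of members lower stayed 5, and no called member changed sign; pdx1, not called, was at log2 0.004 with library size only. The exception among calls was bhlha15, which was called higher with library size only (log2 0.37, making 1 member higher). It was not tested with the filter of 1 CPM. That filter kept rbpjl through its wild-type libraries alone, at 1.41 to 1.65 CPM against 0.412 to 0.618 CPM in mutants. The count under this filter therefore adds no separate support for rbpjl. Without each library in turn, the log2 change was -1.96 to -1.76 for cuzd1.1, -1.70 to -1.59 for cuzd1.2, -1.67 to -1.38 for rbpjl, -0.27 to -0.19 for rbpjb, -0.21 to -0.16 for nr5a2, 0.10 to 0.25 for ptf1a, 0.22 to 0.37 for bhlha15 and -0.10 to -0.04 for pdx1. That of the rbpjl to rbpjb ratio was -1.45 to -1.10.

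The test against 1.5-fold asks for larger changes and so called fewer genes, 1400 higher (5.77% of all genes tested) and 1764 lower (7.27%). It called 3 members lower, and not rbpjb (log2 -0.22) or nr5a2 (-0.19). Counts under it, higher and lower, were 0 and 25 for digestive enzymes, 0 and 2 for granule genes, 0 and 0 for PTF1 partners and Notch genes, 4 and 1 for other pancreas factors, 0 and 2 for islet genes, 0 and 2 for ptf1a-lineage neurons, 1 and 8 for NR5A2 targets, 0 and 13 for hepatocytes, 0 and 12 for enterocytes and 0 and 1 for the whole-larva markers. With library size only, 7 granule genes and 9 ptf1a-lineage genes were lower. With the filter of 1 CPM, 1 NR5A2 target was higher. Without the 3 most abundant enzymes, the log2 excess of cuzd1.2 over the enzymes was 1.72, against 1.55 with them.

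Titles number the replicates alike in both groups, but same-numbered libraries did not deviate together (r = 0.05, -0.07 and -0.04 over 20599 genes, which are not independent). With 3 libraries a group this check cannot exclude a shared clutch or preparation, so whether the numbers mark pairs is not known. With the replicate block 8292 genes were higher and 8168 lower, 5 members were lower and 0 higher, and the log2 ratio of rbpjl to rbpjb differed by -1.33 (exact sign-flip test over 3 pairs, p = 0.25, the smallest possible). Depth limits rbpjl and bhlha15 most among the members, where counting error at the lowest count was 16.4% and 13.1%, followed by cuzd1.1 with 9.62% and ptf1a with 9.33%.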
